A study of Homo sapiens with 6 samples.

Results

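The alpha-globin region was taken as hg19 chr16:60000-250000, which holds the alpha-like globin genes and, inside the neighbouring gene NPRL3, the enhancers that act on them. Its members are the SMARCA4 peaks that share at least 1 bp with this interval, and they number 21 of the 28265 high-confidence peaks of the deposited list, 1191 of which are on chromosome 16. The peaks come from ChIP-seq in K562, an established human chronic myelogenous leukaemia line with erythroid features, in cells with no treatment named. Proteins were fixed to DNA by 30 min in 2 mM disuccinimidyl glutarate followed by 10 min in 1% formaldehyde. There were 3 SMARCA4 libraries and 3 input libraries, where input is the same chromatin without the antibody step. The text deposited with the data counts the SMARCA4 libraries as technical replicates, whereas the study's own account treats them as biological ones. A peak is a stretch found in at least 2 of the 3 replicates, and the list gives its start and end but no height and no value per library. All values are therefore descriptions of 1 pooled list, with no SD between replicates, and the list does not give the number of reads behind a peak.

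SMARCA4, also called BRG1, is the ATPase of the SWI/SNF complexes, which move and evict nucleosomes and so open chromatin at promoters and enhancers. The alpha-like globin genes lie in a row near the tip of the short arm of chromosome 16, in the order HBZ (embryonic zeta-globin), HBM (mu-globin), HBA2 and HBA1 (which encode the same alpha-globin protein) and HBQ1 (theta-globin). In erythroid cells their transcription depends on distant enhancers, most of which sit in introns of NPRL3, a housekeeping gene for a regulator of amino acid signalling to mTORC1. The enhancers carry sites for GATA1, which binds with TAL1 at neighbouring GATA and E-box sequences, and for NF-E2, and they are named HS for DNase I hypersensitive site with their distance in kb upstream of HBZ.

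The sequences of peaks at 3 of the 4 known enhancer distances are shown first, because the known enhancers of the cluster are looked at peak by peak. They are the plus strand of hg19, each named for the site at whose distance from HBZ its peak lies. HS-48 (also MCS-R1) is the whole peak chr16:155014-155208. HS-33 (MCS-R3) is chr16:169943-170242 and HS-10 (MCS-R4) is chr16:193089-193368, each from the middle of a wider peak. A further peak without such a name, chr16:194815-195237, is shown by its middle, chr16:194877-195176, and was chosen after its motifs were seen. Capitals mark matches, on either strand, to the GATA motif (GATA with A or T before it and A or G after it) or the KLF-type motif (CCACACCC, CCACGCCC, CCCCACCC or CCCCGCCC).
HS-48: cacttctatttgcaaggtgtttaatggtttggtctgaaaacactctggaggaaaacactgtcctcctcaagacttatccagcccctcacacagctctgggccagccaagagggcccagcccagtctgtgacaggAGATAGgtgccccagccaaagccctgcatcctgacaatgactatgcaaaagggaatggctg
HS-33: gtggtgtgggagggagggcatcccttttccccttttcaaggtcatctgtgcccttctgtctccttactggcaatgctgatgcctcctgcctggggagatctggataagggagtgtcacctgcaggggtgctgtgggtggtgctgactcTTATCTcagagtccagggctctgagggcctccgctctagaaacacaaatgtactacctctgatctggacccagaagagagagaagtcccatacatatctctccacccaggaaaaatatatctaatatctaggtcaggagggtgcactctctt
HS-10: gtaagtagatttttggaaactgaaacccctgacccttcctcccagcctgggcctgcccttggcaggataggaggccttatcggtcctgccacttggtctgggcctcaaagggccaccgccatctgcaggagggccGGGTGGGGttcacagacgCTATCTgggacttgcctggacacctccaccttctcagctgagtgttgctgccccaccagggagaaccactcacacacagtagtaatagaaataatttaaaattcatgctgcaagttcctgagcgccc
Peak 17: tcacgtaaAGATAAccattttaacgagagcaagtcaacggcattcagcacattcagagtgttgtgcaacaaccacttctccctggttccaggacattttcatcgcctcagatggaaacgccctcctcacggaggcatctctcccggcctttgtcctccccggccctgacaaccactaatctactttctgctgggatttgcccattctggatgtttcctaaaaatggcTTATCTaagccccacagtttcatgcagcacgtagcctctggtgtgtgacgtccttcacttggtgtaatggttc

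The 150 bases before the canonical start are shown for 3 alpha-like globin genes, since only the last of the 5 starts of the cluster, that of HBQ1, had a peak on it. In HBZ (chr16:202493-202642), HBM (chr16:215827-215976) and HBQ1 (chr16:230308-230457) capitals mark the motifs listed for the enhancers. All are the plus strand of hg19.
HBZ upstream: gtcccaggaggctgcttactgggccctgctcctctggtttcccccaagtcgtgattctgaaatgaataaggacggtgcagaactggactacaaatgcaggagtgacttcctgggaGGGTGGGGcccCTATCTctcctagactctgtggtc
HBM upstream: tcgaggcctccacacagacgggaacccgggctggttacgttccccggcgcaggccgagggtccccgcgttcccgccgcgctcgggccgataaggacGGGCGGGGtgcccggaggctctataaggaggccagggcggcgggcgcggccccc
HBQ1 upstream: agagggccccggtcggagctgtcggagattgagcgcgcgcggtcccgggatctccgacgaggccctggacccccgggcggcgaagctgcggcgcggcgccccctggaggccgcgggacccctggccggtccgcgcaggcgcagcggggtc

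SMARCA4 peaks were dense across the region. The 21 peaks covered 7980 bp, or 4.20% of its 190001 bp, against 0.708% of chromosome 16 and 0.457% of the genome outside assembly gaps. This is 11.1 peaks per 100 kb, where chromosome 16 had 1.51 and the genome 0.989. Neighbouring peaks were 4159 bp apart at the median, compared with 16306 bp over the whole list. Of 14733 windows of the same length tiled over chromosomes 1 to 22 and X, 99.6% held fewer peaks than the region, the median window held 0 and the richest held 40. The rank was lower among gene-rich windows. The region has 10 starts of protein-coding genes, counting 1 for each gene, and among the 142 windows with at least as many the median was 12 peaks and 83.1% held fewer than 21. By covered bases 71.1% of these gene-rich windows lay below the region.

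**Figure D1:**
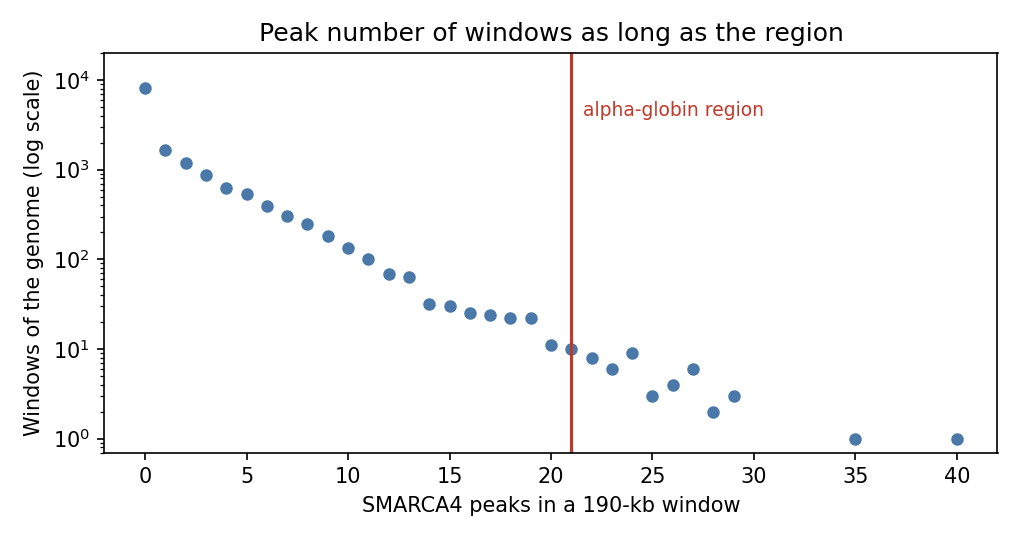
Number of 190-kb windows of the genome (log scale) by the number of SMARCA4 peaks they hold, as points, with the alpha-globin region as a vertical line at 21 peaks. Of the 14733 windows, 53 held as many peaks or more.

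The peaks were not spread evenly. They formed a group over POLR3K, SNRNP25, RHBDF1 and MPG (6 peaks), a group along NPRL3 (9 peaks), a pair between NPRL3 and HBZ, a single peak at the 3′ end of HBZ and a group of 3 at HBQ1. No peak lay in the 42.5 kb from the telomeric end of the region to the first peak, where 62.3% of the 75-base stretches of sequence occur once in hg19. The longest distance between neighbouring peaks, 25.6 kb, fell inside the globin cluster, between HBZ and HBQ1. Distances of 18.5 kb (MPG to the 3′ part of NPRL3) and 17.0 kb (intron 3 to intron 2 of NPRL3) followed.

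**Figure D2:**
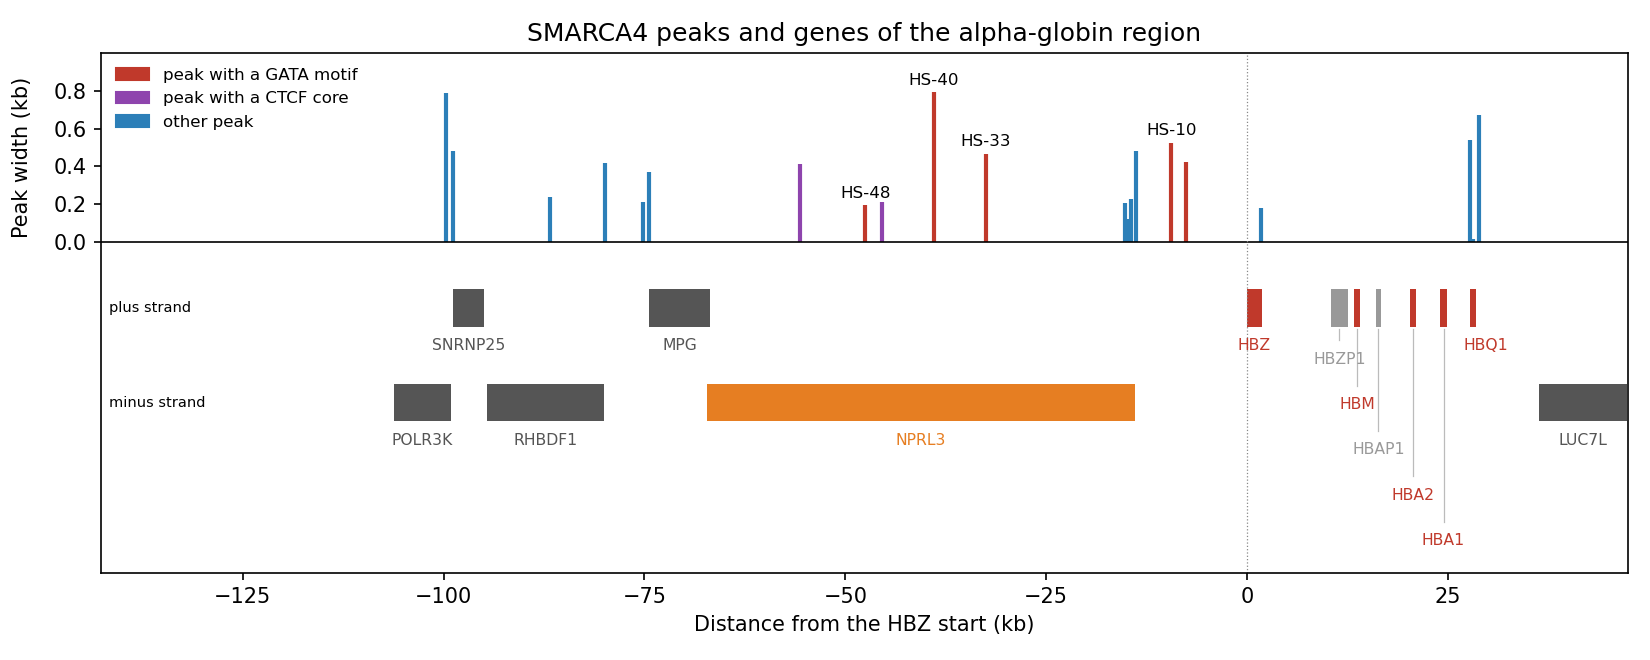
Position of the 21 SMARCA4 peaks against the distance from the HBZ start in kb, each line as tall as its peak is wide in kb, with the genes of each strand drawn below to scale. The 5 peaks with a GATA motif all lie in NPRL3 or between NPRL3 and HBZ, and the stretch over HBM, HBA2 and HBA1 holds no peak.

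All 4 enhancer distances had a peak, where a peak counted as at the distance when its nearest edge lay within 2 kb of it. The rule is wide for a region so dense in peaks, since 32.1% of all its positions, and 36.0% of those upstream of HBZ, lie as close to a peak. The peak at HS-40, the strongest of the known enhancers of the cluster, was chr16:163261-164053 in intron 5 of NPRL3. At 793 bp it was the widest of the 21, wider than 87.2% of all peaks and wider than 91.2% of the 16474 peaks of the list that lie over 1 kb from a protein-coding gene start. It reached from 38.59 to 39.38 kb upstream of HBZ. It held 3 GATA motifs, 2 AP-1 motifs (TGACTCA or TGAGTCA) and the single NF-E2 motif of the whole region, which is TGC followed by an AP-1 motif. Of all peaks, 2.40% had an NF-E2 motif.

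At the distance of HS-33 lay a 468-bp peak, chr16:169859-170326, in intron 3 of NPRL3, from 32.32 to 32.78 kb upstream of HBZ. Its single GATA motif, at chr16:170091-170096, lay 1 bp from the peak's centre. HS-48 had the narrowest peak of the 4, chr16:155014-155208, of 195 bp, in intron 7 of NPRL3 and 47.44 to 47.63 kb upstream of HBZ, with 1 GATA motif 39 bp from its centre. HS-10 lies between the canonical genes NPRL3 and HBZ, within the longer HBZ transcript described later, and its 525-bp peak, chr16:192966-193490, reached from 9.15 to 9.68 kb upstream. It held 1 GATA motif 16 bp from the centre and a KLF-type motif 1 bp from it. The 4 peaks were alike in base composition, with 52.3 to 54.3% GC and a CpG content of 0.00 to 0.19 of that expected from their C and G, and every 75-base stretch in them occurs once in hg19.

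The composite of an E-box part and a GATA site, taken as CTG, then 7 or 8 bases of any kind, then a GATA motif, was found in the peaks at HS-48, HS-40 and HS-33 and not in the one at HS-10. The only other peak with it was peak 17, at chr16:194815-195237 and 7.41 to 7.83 kb upstream of HBZ, which is 423 bp wide and has 3 GATA motifs. It lies 1324 bp from the HS-10 peak, and no named site lies at its distance under the rule used. Composites were thus in 4 of the 21 peaks, or 19.0% (95% Wilson interval 7.67 to 40.0%), where 12.4% of all peaks and 2.37% of 368-bp tiles of chromosome 16 had one. Over 1 kb from a coding start, 4 of 7 peaks of the region had one, where 18.7% of all such peaks did. Of the 11 composites in the whole region 4 lay in a peak (36.4%), where 114 of 5376 on chromosome 16 did (2.12%). These shares stand beside a peak cover of 4.20% of bases in the region and 0.708% on chromosome 16. Of the 180 GATA motifs of the region 9 lay in a peak, or 5.00%, which is close to the 4.20% of its bases that peaks cover. On chromosome 16, where peaks cover 0.708%, the GATA share was 0.590%.

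A further pair of peaks in NPRL3 had neither GATA nor AP-1 motifs but a match to the CTCF core, the central part of the sequence bound by the insulator protein CTCF. They were chr16:146849-147261 in intron 9, with the match 12 bp from the centre on the minus strand, and chr16:157062-157271 in intron 7, with the match 43 bp from the centre on the plus strand. The second lies 1853 bp from the HS-48 peak, on the side of the globin genes. CTCF cores were in 2 of the 21 peaks (9.52%, interval 2.65 to 28.9%), where 3.15% of all peaks had one. Together with the 3 enhancer peaks of its introns they account for every peak of NPRL3 that is over 2 kb from its canonical start.

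The other 4 peaks of NPRL3 were crowded at its start. They ran from chr16:187332-187535 in intron 2 through chr16:187830-187953 and chr16:188117-188342, which takes in exon 2, to chr16:188579-189058 on exon 1, with 163 to 294 bp between neighbours. Their widths were 204, 124, 226 and 480 bp, and they differed widely in composition, since the 124-bp peak had 35.5% GC and the 226-bp peak beside it 70.8%. All but the first, 3 peaks, lay within 1 kb of the canonical start.

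Peaks near a start were counted for each of the alpha-like globin genes. Only HBQ1 had one within 1 kb of its canonical start, so 1 of 5 genes did, where 44.8% of 19553 protein-coding genes did. Counting the starts of all protein-coding transcripts, 2 of 5 did, where 46.7% of 19834 genes did. The added gene was HBZ, through a longer transcript that starts 9.92 kb upstream of the canonical one, at chr16:192727, so that the peak in question was the HS-10 peak. With so few genes the count does not set them apart from the rest.

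HBQ1 carried 3 peaks within 1 kb of its start. Among the 8752 protein-coding genes with at least 1 peak there, 411 had 3 or more, or 4.70%. The first, chr16:230132-230673, of 542 bp, covered the start, exon 1, intron 1 and part of exon 2. The next, chr16:230758-230770 in exon 2, was 13 bp wide, the narrowest of the region, and only 0.428% of all peaks were narrower. The last, chr16:231154-231824, of 671 bp, began in exon 3 and ran past the 3′ end of the gene. The peaks were 84 and 383 bp apart, had 69.7, 84.6 and 67.8% GC, and lay in sequence that occurs once in hg19. Merged across distances of at most 500 bp they form a single stretch. No GATA, AP-1 or CTCF motif was found in them.

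HBZ had no peak at its canonical start but one at its other end, chr16:204330-204510, which begins 1687 bp after the start, inside exon 3, and runs just past the 3′ end of the gene. It was 181 bp wide with 65.2% GC and held none of the motifs searched. A transcript of HBM with no defined coding sequence starts at chr16:203891, within 1 kb of this peak. The canonical HBM start was 11467 bp from the nearest peak, the HBA2 start 7257 bp and the HBA1 start 3453 bp. The pseudogenes HBZP1 and HBAP1 had no peak either, the nearest being 8611 and 11454 bp from their starts.

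Whether reads can be placed at these genes differs between them. As a measure, each 75-base stretch, the read length of the study, was looked up in hg19, and the share found exactly once was taken over each gene with 1 kb on either side. The share was 99.6% for HBQ1 and 98.4% for HBM, 74.3% for HBZ, 59.9% for HBA1 and 44.8% for HBA2. Over the 5 genes it was 75.1%. In the 250 bases before the start it was 100% for HBZ, HBM and HBQ1 and 23.1% for both HBA2 and HBA1. HBM had no peak, and its share was 98.4%. The 250 bases before HBZ, all unique, had none either, while over the HBZ gene body the share was 50.8%. The cause of the lack of a peak at HBM and at the HBZ start was not tested. For HBA2 and HBA1 the lack of a peak and the loss of reads that fit several places cannot be told apart, because the sources used here name a mapping quality limit of 10 at the trimming step, before alignment, and do not say how such reads were treated afterwards.

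**Figure D3:**
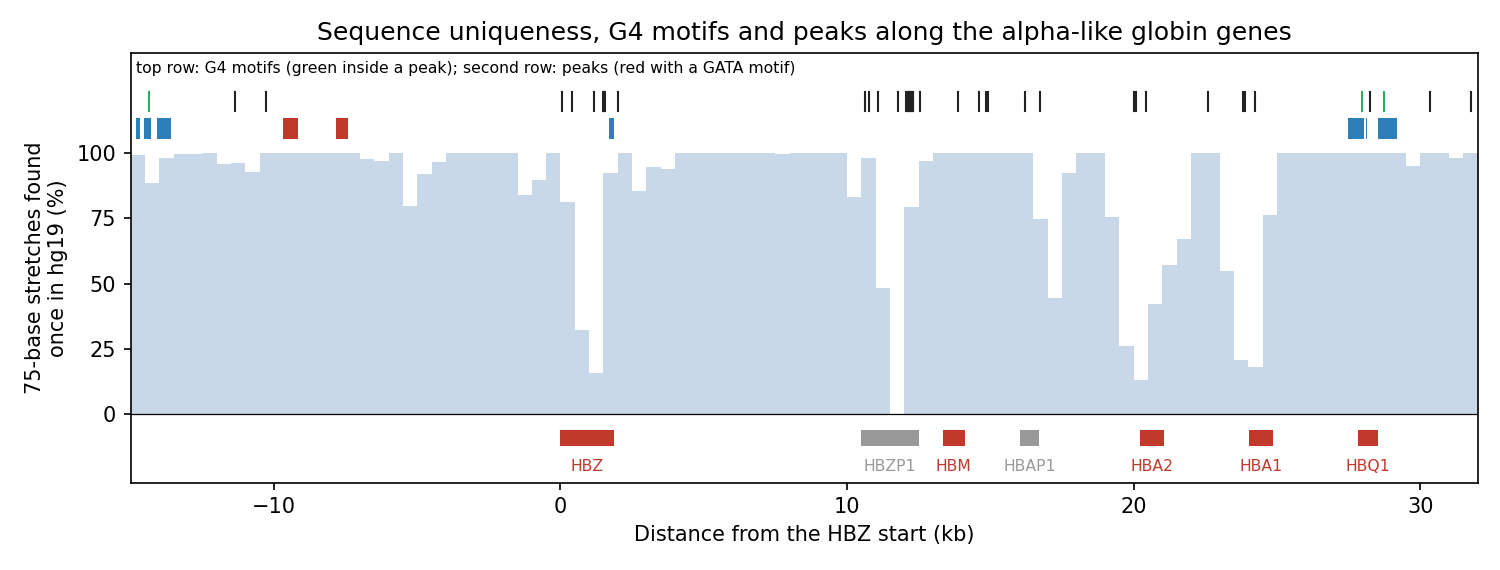
Share of 75-base stretches found once in hg19 in bins of 500 bp (bars, %) against the distance from the HBZ start in kb, with G4 motifs and peaks above and genes below. The share falls at HBZ, HBZP1, HBA2 and HBA1 and stays near 100% around HBM and HBQ1, and of the 5 alpha-like globin genes only HBQ1 has a peak on its canonical start.

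The study addressed SMARCA4 binding to folded G-quadruplexes (G4s) in chromatin. It reported that most of the G4s mapped in K562 cells overlapped a SMARCA4 peak, with the ChIP signal centred on them. At control sites that could form a G4 but did not, it reported no particular enrichment. Here potential G4s were represented by a G4 motif, in which 4 runs of 3 or more guanines on 1 strand are separated by 1 to 7 bases. The motif only gives the sequence, and which of them fold in K562 cells was not analysed here. The region held 117, or 61.6 per 100 kb, where chromosome 16 had 21.4, and its GC content was 54.2% against 44.8%. Of the 117, 7 lay wholly inside a peak (5.98%, interval 2.93 to 11.8%), where 641 of 16918 on chromosome 16 did (3.79%). Peaks covered 4.20% of the bases of the region and 0.708% of those of chromosome 16, so relative to covered bases the share was lower in the region than on the chromosome. Among the 110 outside, 77 lay in sequence of which at least 95% occurs once in hg19, and 1 touched a peak in part. The interval covers counting error only and treats the motifs as independent. Many of them lie close together in rows, as in MPG and HBZP1, so it is too narrow. From the HBZ start to the HBQ1 end there were 40 G4 motifs in 28.5 kb, or 140 per 100 kb, of which 1 was in a peak. Of these, 16 were in HBZP1, and the 25.6 kb without a peak held 31.

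By peaks, 7 of 21 held a G4 motif, or 33.3% (interval 17.2 to 54.6%), and 23.4% of all peaks did. In the central 200 bp alone the order turned, with 2 of 21 (9.52%) against 13.5% of all peaks. The 7 were the peaks at the starts of SNRNP25, RHBDF1 and MPG, the one at exon 2 of NPRL3, the HS-40 peak and the wider pair at HBQ1. Of the 5 peaks with a GATA motif only the one at HS-40 had a G4 motif. The G4 share differs by place. Over 1 kb from a coding start, 1 of 7 peaks of the region had a G4 motif, where 10.3% of all such peaks did. The other 14 peaks of the region lay nearer to a start, as did 41.7% of all peaks. Examples are given here, 5′ to 3′ on the strand that carries the guanines, with runs of at least 3 guanines in capitals. They are chr16:104067-104088 in intron 1 of SNRNP25 (plus strand) and chr16:230614-230634 in intron 1 of HBQ1 (minus strand).
SNRNP25 G4 motif: GGGcGGGGGctGGGGGcgcGGG
HBQ1 G4 motif: GGGGGGcttGGGGaGGGaGGG

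Of the 6 other protein-coding genes with an annotated coding start in the region, 5 had a peak within 1 kb of a start inside the region. With every coding start of a gene counted, inside the region or beyond it, 6 of 6 did, where by the same rule 46.7% of all protein-coding genes and 2 of the 5 alpha-like globin genes did, and the difference between these counts was not tested. The 5 were POLR3K, SNRNP25, RHBDF1, MPG and NPRL3. POLR3K (a subunit of RNA polymerase III) and SNRNP25 (a protein of the minor spliceosome) are transcribed away from each other, and a pair of peaks lay there. The 789-bp peak chr16:102504-103292 was in intron 1 of POLR3K, and the 481-bp peak chr16:103611-104091 covered the SNRNP25 start and lay 3 bp from the POLR3K start. RHBDF1, an inactive rhomboid protein, had the 420-bp peak chr16:122516-122935 on its start and a 239-bp peak, chr16:115726-115964, in intron 1. MPG, a DNA glycosylase, had the 370-bp peak chr16:127998-128367 on its start and a 213-bp peak, chr16:127347-127559, which ends 665 bp before it. LUC7L lacked a peak at its 1 start in the region, which belongs to an incomplete transcript. Its canonical start, at chr16:279448, lies outside the region, and the nearest peak beyond the border, chr16:279077-279652, covers it. That peak is 29077 bp from the border, and the last peak inside is 18.2 kb from it.

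In all, 14 of the 21 peaks were within 1 kb of a protein-coding start, where 41.7% of all peaks were, and 7 were further away. With peaks at most 500 bp apart merged, 7 of 14 were near one, where 38.3% of the merged list was. Counted from canonical starts alone, 11 peaks were near one. The median width of the 21 peaks was 413 bp (95% binomial interval of the median 210 to 481 bp), and that of all peaks was 368 bp. There were 4 peaks under 200 bp, and 16.4% of the list was.

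The peaks were compared by their motifs. A GATA motif was present in 5 peaks (23.8%, interval 10.6 to 45.1%), whereas 51.3% of all peaks had one, 68.3% of those over 1 kb from a start and 47.2% of 368-bp tiles of chromosome 16. When peaks no more than 500 bp apart were joined, 6 of 14 had a GATA motif (42.9%, interval 21.4 to 67.4%), where 57.9% of the merged list did, and in the central 200 bp 5 of 21 unmerged peaks did (23.8%, with the same interval as above), where 40.2% of all peaks did. The region's share was the lower one under each way of counting. The merged and the central interval hold the matching share of the whole list, whereas the interval for whole unmerged peaks does not. The 5 peaks were the 4 at enhancer distances and peak 17. The share differs by place, since 27.6% of all peaks within 1 kb of a coding start had a GATA motif and 14 of the region's peaks were near one. Near a start, 1 of 14 had a GATA motif, and further away 4 of 7 did, with too few peaks to set either share apart. The 1 near a start was the HS-10 peak. It lies near the start of the longer HBZ transcript and 4294 bp from the nearest canonical start. The GC box (GGGCGG) was present in 7 peaks, where 39.3% of all peaks had it. All 7 lacked a GATA motif and lay within 1 kb of a coding start. Over the whole list, 79.9% of peaks with a GC box and no GATA motif lay as near to one. No peak of the region had both a GATA motif and a GC box, and 12.2% of all peaks had both. The 5 GATA peaks had 45.9 to 54.3% GC and 0.00 to 0.55 of the expected CpG. The 7 GC-box peaks had 63.5 to 78.4% GC and 0.57 to 1.02 of the expected CpG, and these ranges did not overlap in the region. The remaining 9 peaks had neither motif and spanned both, with 35.5 to 84.6% GC. Over the whole list the medians were 44.6% GC for peaks with GATA and no GC box and 68.8% for those with a GC box and no GATA motif. The ranges there overlap widely, since the former reach up to 75.9% and the latter down to 37.8%. The motifs themselves differ in G and C content, and their part in this contrast was not tested.

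**Figure D4:**
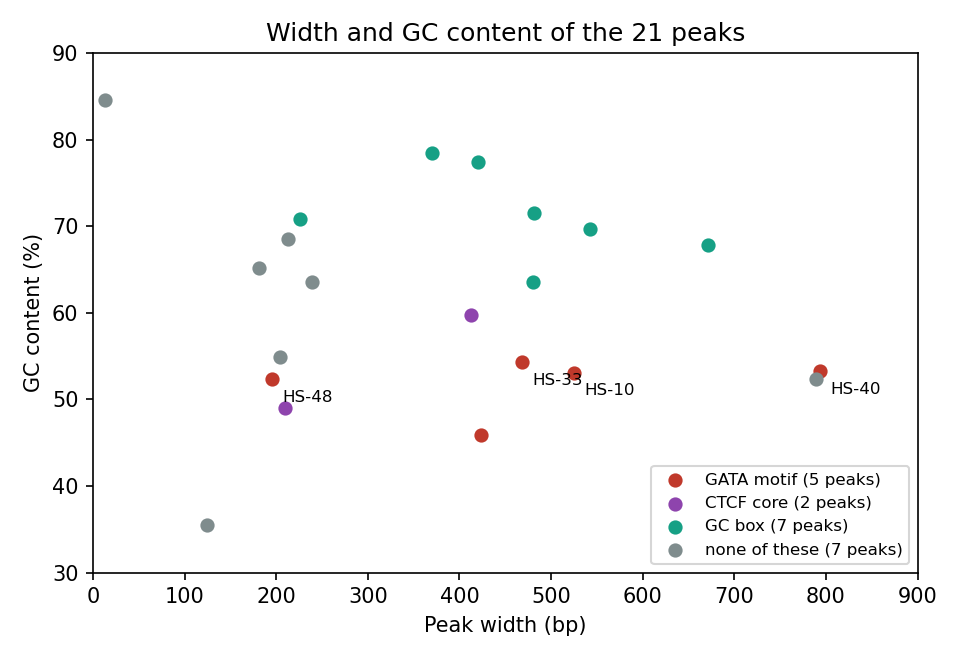
GC content (%) against width (bp) of each of the 21 peaks, coloured by the motif found. The 5 GATA peaks lie between 45.9 and 54.3% GC, below all 7 GC-box peaks, which lie between 63.5 and 78.4%.

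KLF-type motifs, bound by erythroid and other KLF factors, were in 8 peaks (38.1%, interval 20.8 to 59.1%), where 34.1% of all peaks had one. When only the central 200 bp were searched, 3 peaks had one (14.3%), where 21.7% of all peaks did under the same search. AP-1 motifs were in 2 peaks (9.52%), at HS-40 and at the RHBDF1 start, and 17.3% of all peaks had one. In the region 3 of 28 AP-1 motifs lay in a peak (10.7%), and on chromosome 16 1.90% did. Relative to the bases that peaks cover, 4.20 and 0.708%, these shares are close to each other. A match says that the letters are present and does not show that a factor was bound there.

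**Figure D5:**
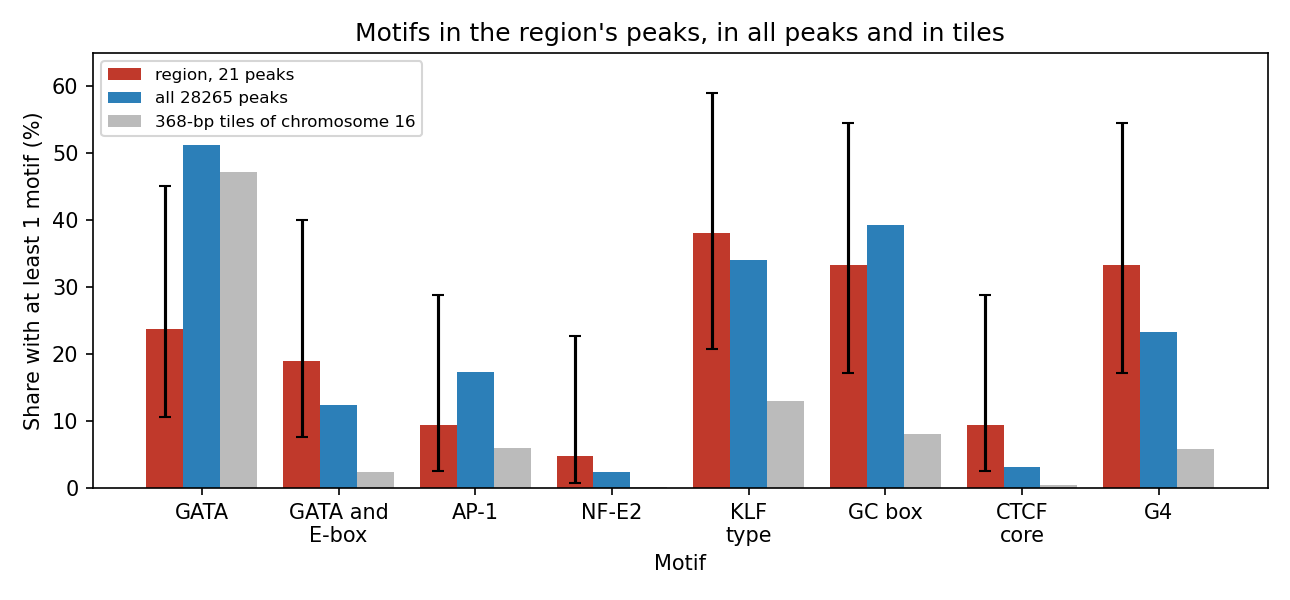
Share (%) of peaks with at least 1 match to each motif, for the 21 peaks of the region with 95% Wilson intervals, all 28265 peaks and 368-bp tiles of chromosome 16. The GATA share of the region, 23.8%, lies below that of all peaks, 51.3%. With nearby peaks merged it is 42.9%, where the merged list has 57.9%, and its interval of 21.4 to 67.4% holds that share. The intervals of the other motifs hold the share of all peaks.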

How the data were processed

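SMARCA4 ChIP-seq reads were trimmed with cutadapt, with a limit of 10 that is called a mapping quality although it is given for this step, aligned to hg19 with BWA and freed of duplicates with Picard and SAMtools by the authors, who called peaks per replicate with MACS2 at a q-value threshold of 0.05 and kept regions found in at least 2 of 3 replicates with bedtools. The deposited file gives where each region starts and ends, in bp. Depth per library was not used here.

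Genes and starts were taken from GENCODE 44 on hg19, and Python 3.11.15 with numpy 2.4.6 was used. A 75-base stretch was unique if it occurred once in hg19 on either strand, in exact copies. Windows with over 10% assembly gap or overlapping the region were left out. Named genes were all protein-coding genes and globin pseudogenes overlapping the region. Members and lists were chosen with earlier results of these data known, and no test was run. The functions were tested on simulated data. Alternatives were narrower peak sets, merged peaks, other distances, starts, windows, motif windows and stretch lengths. Some sequences are not reported here.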

Additional observations from a re-analysis of the deposited data

How the results depend on the processing

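Of 50 alternatives over 14 results, 41 left counts and the covered bases within 1.5 times the reported value, or other shares and the median within their 95% interval. The covered share of 4.20% became 3.93% with only peaks of at least 200 bp and 5.21% with nearby peaks merged. The share of windows with fewer peaks was 99.3% on chromosome 16, 99.3% with peaks at most 500 bp apart merged and 83.1% among gene-rich windows. Merging left 7 peaks within 1 kb of a coding start, since neighbours at 1 start became a single peak. Counted from canonical starts alone, a choice made after seeing the data, 1 globin gene had a peak near its start. In the central 200 bp, 14.3% of peaks had a KLF-type motif and 9.52% a G4 motif, where 21.7 and 13.5% of all peaks did. The GATA share of 23.8% became 42.9% with nearby peaks merged, which stays inside its interval of 10.6 to 45.1%. The share of unique stretches over the globin genes was 69.8% with 50 bases and 62.8% over gene bodies alone. No paired analysis was possible because the list holds 1 pooled set of peaks without values for single libraries, and for the same reason no replicate could be left out. With 21 peaks the intervals of shares are wide. The list gives no peak heights, and library depth was not used.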
